A study of Homo sapiens with 12 samples.

Results

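The cluster of zinc finger genes at the end of the long arm of human chromosome 19 was followed in neural cultures grown from the human embryonic stem cell lines H9 and H1. The set was defined by name and position, as every protein-coding gene whose symbol begins with ZNF and whose start lies past position 52000000 of chromosome 19, up to the chromosome's end (GRCh38, GENCODE 29). This gave 93 genes of the 63925 gene IDs in the count files. The rule uses no measured value, but the set was chosen with earlier results of these data known. RNA of 12 cultures had been counted, 3 sister cultures in each of 4 groups, namely H9 with dexamethasone, H9 with vehicle, H1 with dexamethasone and H1 with vehicle. All cultures were differentiated for 10 weeks by dual inhibition of SMAD signalling, from stem cells kept on mouse feeder cells, and were then given 1 µM dexamethasone, a synthetic glucocorticoid, or its solvent DMSO for 6 h. H9 and H1 are established lines without a labelled genetic change, and each stands for 1 embryo, so a difference between them is a difference between these lines as grown here.

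Most genes of this cluster encode proteins with a KRAB domain followed by a row of C2H2 zinc fingers. The fingers bind DNA, often within transposable elements, and the KRAB domain recruits the scaffold protein TRIM28, which brings the histone methyltransferase SETDB1, HP1 proteins and DNA methyltransferases to the bound site. The genes arose by repeated tandem duplication and many have promoters rich in CpG. In stem cells and in tumours single genes of the cluster are known to be switched off by methylation of that promoter, and in the brain members such as ZNF587 and its copy ZNF417 are known to restrain transposable elements.

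The promoter letters of 5 members are shown because the largest differences between the lines fell on some of them. The sequences are RefSeq promoter windows of the GRCh38.p14 build, from 250 bases before to 50 bases after the annotated start, written 5′ to 3′ on the gene's strand. ZNF880, ZNF528 and ZNF578 were lower in H9, while their neighbour ZNF808 was not. In these 4 windows the capitals mark the letters ACCCGGAAG and GCGCGCG where they read along the gene's strand; the counts given further on searched both strands. In the window of ZNF667, nearly silent in H9, the capitals mark each CG. The windows lie at chr19:52369673-52369972 (+), chr19:52397599-52397898 (+), chr19:52453303-52453602 (+), chr19:52527418-52527717 (+) and chr19:56477296-56477595 (-), in the order of the lines.
ZNF880: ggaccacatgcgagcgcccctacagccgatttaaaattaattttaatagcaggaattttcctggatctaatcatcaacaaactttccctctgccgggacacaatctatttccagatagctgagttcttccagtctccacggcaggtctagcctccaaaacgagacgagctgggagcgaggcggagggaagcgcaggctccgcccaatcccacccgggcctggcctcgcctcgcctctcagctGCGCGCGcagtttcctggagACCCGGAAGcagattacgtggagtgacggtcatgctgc
ZNF528: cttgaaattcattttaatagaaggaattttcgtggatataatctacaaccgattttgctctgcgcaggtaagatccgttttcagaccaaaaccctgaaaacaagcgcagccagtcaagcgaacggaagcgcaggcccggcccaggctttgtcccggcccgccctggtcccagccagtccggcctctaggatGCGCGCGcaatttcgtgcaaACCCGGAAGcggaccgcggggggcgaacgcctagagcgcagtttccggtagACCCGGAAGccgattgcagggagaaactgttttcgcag
ZNF578: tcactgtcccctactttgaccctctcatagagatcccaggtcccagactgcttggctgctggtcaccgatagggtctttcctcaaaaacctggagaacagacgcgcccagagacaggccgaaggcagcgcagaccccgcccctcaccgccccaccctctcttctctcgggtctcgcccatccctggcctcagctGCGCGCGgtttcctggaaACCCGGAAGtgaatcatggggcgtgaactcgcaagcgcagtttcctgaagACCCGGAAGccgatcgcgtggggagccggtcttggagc
ZNF808: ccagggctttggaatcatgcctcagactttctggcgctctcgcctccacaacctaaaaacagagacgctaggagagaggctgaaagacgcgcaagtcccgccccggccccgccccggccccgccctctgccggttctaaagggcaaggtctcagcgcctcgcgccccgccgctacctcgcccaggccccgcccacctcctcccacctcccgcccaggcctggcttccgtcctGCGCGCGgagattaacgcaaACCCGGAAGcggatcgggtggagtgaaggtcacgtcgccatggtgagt
ZNF667: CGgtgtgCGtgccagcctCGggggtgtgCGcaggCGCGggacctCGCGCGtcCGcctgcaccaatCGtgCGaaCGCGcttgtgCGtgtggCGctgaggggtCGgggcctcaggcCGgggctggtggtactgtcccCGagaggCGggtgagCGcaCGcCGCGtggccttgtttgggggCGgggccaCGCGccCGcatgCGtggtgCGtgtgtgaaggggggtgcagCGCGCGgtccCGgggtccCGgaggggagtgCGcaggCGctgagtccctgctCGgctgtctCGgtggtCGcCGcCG

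A window was found for 82 of the 93 genes by symbol. They held 11 to 42 CG per 300 bases with a median of 24.5, against a median of 14 over all 35116 promoters of the table, and ZNF667 had the 42. Every one of the 82 held at least 10 CG, as did 56.4% of all promoters. The promoters of the table were not filtered by gene type, whereas the members are all protein-coding. ZNF816 and ZNF816-ZNF321P have the same window, which is counted for each of them. Members that were lower in H9 under both treatments had a median of 26 CG (n = 25) and the other tested members one of 23 (n = 41). Across 66 members the Spearman correlation of the CG count with the log2 difference between the lines was -0.0577 in dexamethasone and -0.0348 in vehicle cultures. The Pearson correlation was -0.245 and -0.254. It takes in the fitted difference of ZNF667, whose value in vehicle cultures depends on the model. Both are given as a description over genes that share their ancestry and libraries. The letters ACCCGGAAG, which contain the shorter CCGGAAG, occurred in 20 of 82 member windows (24.4%) against 1.07% of all promoters, and 17 of those 20 lay in the first of the 4 blocks described further on. There they were present in 10 of 13 members lower in H9 under both treatments and in 4 of 10 other tested members. CCGGAAG occurred in 13 of the same 13 and in 4 of the same 10, but over the whole cluster in 19 of 25 members lower under both treatments and in 25 of 41 other tested members, and in 10.3% of all promoters. For ACCCGGAAG the whole-cluster counts were 10 of 25 and 7 of 41. The motifs were chosen after windows of these genes had been read. ZNF880, ZNF528 and ZNF578, whose windows are shown for their differences between the lines, are themselves among the 13. The counts in lower and other members are therefore a description and no test of a link. GCGCGCG occurred in 26.8% of member windows against 11.6% of all promoters. The windows of ZNF528, ZNF578 and ZNF808 carry the same pair of motifs although the first 2 fell in H9 and the third did not, and a match describes the letters only.

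Total counts ran from 14751168 to 27505804 per library, and the members together took 0.123% to 0.184% of them. H9 vehicle culture 3 stood apart. It had the lowest total, a mitochondrial share of 0.607% where the rest had 2.91% to 5.64%, and the greatest distance from its own group, 0.569 on the log2 scale (root mean square over genes) where the rest had 0.179 to 0.341. Counts of called members between the lines are therefore also given without it, as are values of single genes where leaving it out changed a call or moved a value by over 1.5 times. Dexamethasone raised FKBP5, a standard glucocorticoid receptor target, to 28.2 ± 2.32 CPM in H9 dexamethasone cultures against 4.42 ± 0.573 in H9 vehicle cultures (SD, n = 3 each), and to 22.3 ± 3.14 in H1 dexamethasone against 5.53 ± 0.573 in H1 vehicle cultures. Summed blood cell markers stayed at or under 0.46 CPM, and all 3 had too few reads for the test. AIF1, which is among them, was listed at 0 in all libraries, and this was not read as absence of RNA. Neuron and astrocyte markers were present in all groups and leaned higher in H9. Summed CPM of 7 neuron markers was 5012 to 5116 in H9 dexamethasone and 3380 to 4686 in H9 vehicle cultures, against 3069 to 3646 in H1 dexamethasone and 3275 to 3286 in H1 vehicle cultures, with 4 of 7 higher in H9 in dexamethasone and 3 of 7 in vehicle cultures (5 of 7 in each without H9 vehicle culture 3). DCX, a gene of young neurons, differed by 1.18 and 0.94 on the log2 scale. Of 6 astrocyte markers 4 were higher in H9 in dexamethasone and 3 in vehicle cultures (5 and 4 without that culture), with log2 differences of 3.41 and 4.15 for ALDH1L1 and 2.84 and 2.32 for AQP4, while GFAP did not pass. POU5F1 and SOX2 were listed at 0 in all libraries, including H9 and H1 cultures that held reads of the neural progenitor genes PAX6 and NES, and these 0s were not read as absence of RNA. Of 7 pluripotency markers 3 were tested, with 1 higher and 2 lower in H9 under both treatments. Summed CPM of 7 proliferation markers was 66.95 to 87.4 in H9 dexamethasone and 47.75 to 73.45 in H9 vehicle cultures, against 454 to 461 in H1 dexamethasone and 393 to 457 in H1 vehicle cultures, with 7 of 7 lower in H9 under both treatments. Sums over 8 mesenchymal markers spanned 188 to 338 CPM in H9 and 1423 to 3230 CPM in H1, with 4 of 8 lower and 1 higher in H9 under both treatments. The marker sums of these 4 cell types moved with every difference between the lines given here, and their part in it was not tested. In bulk RNA, fewer cells of a type and less RNA per cell cannot be told apart.

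Of the 93 genes, 75 had enough reads for the test and 18 did not. Among the 18, 14 had no read in any library (ZNF841, ZNF468, ZNF888, ZNF816-ZNF321P, ZNF816, ZNF581, ZNF548, ZNF17, ZNF772, ZNF419, ZNF551, ZNF587B, ZNF8 and ZNF497). The other 4, ZNF836, ZNF547, ZNF417 and ZNF544, had 3, 1, 3 and 17 reads over all 12 libraries. All 18 lie with at least 91.97% of their span inside other annotated genes on the same strand. Of the 20 members that overlap in this way over at least 90% of their span, 18 had 20 reads or fewer, the exceptions being ZNF320 with 5919 reads and ZNF580 with 318. Of the 73 members with less overlap, 0 had so few. The same held over all protein-coding genes, where 67.6% of 1189 genes with at least 90% overlap had no read, against 9.51% of 15898 genes with under 1%. EIF4A1, a translation initiation factor used by every cell, and RPL17, a ribosomal protein gene, were also listed at 0, with 100% and 98.92% overlap. TUBB, a tubulin gene, was at 0 with no such overlap, so overlap does not account for every listed 0. A listed 0 of these members is therefore not read as absence of RNA, and ZNF417, ZNF8 and the rest of the 18 are left out of all counts below. ZNF880, ZNF528, ZNF578, ZNF667, ZNF471 and ZNF835, on which the results turn, have no overlap on their own strand.

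**Figure D1:**
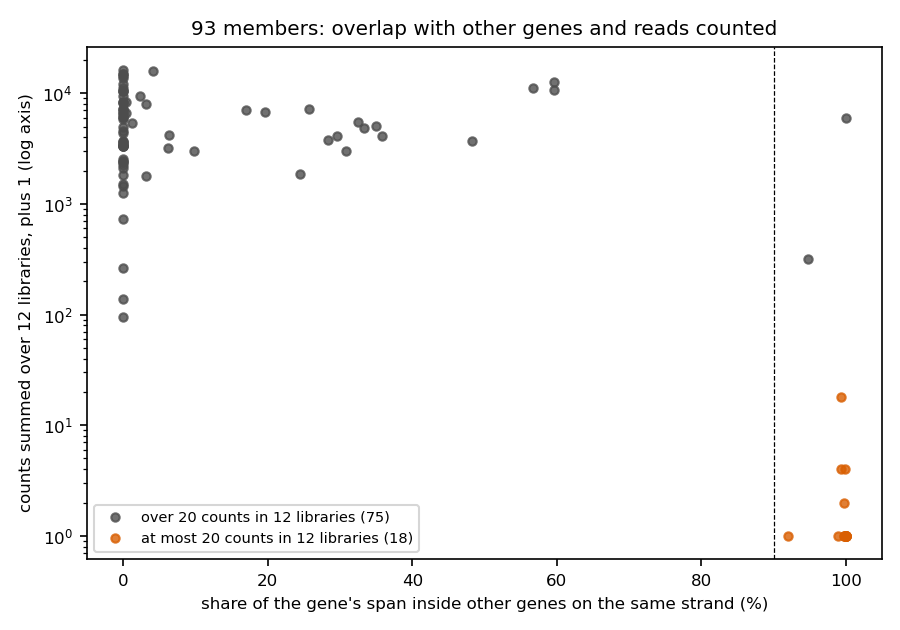
Reads counted for each of the 93 genes over 12 libraries (plus 1, log axis) against the share of its span that lies inside other genes on the same strand. Orange points are the 18 members with at most 20 reads, all to the right of the dashed line at 90%.

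The main question put to the cluster was how H9 compared with H1 along the chromosome. Fewer members were higher in H9 and more were lower than among genes at large. In dexamethasone cultures 4 of 75 members were higher and 38 lower in H9 (edgeR quasi-likelihood test, Benjamini-Hochberg adjusted p under 0.05 over all 17819 genes), where 22.5% of all genes were higher and 21.2% lower. In vehicle cultures 11 were higher and 32 lower, where the shares of all genes were 25.7% and 21.2%. Without H9 vehicle culture 3 the counts were 10 higher and 39 lower in vehicle cultures, against 30.1% and 28.6% of all genes, and 7 higher and 47 lower in dexamethasone cultures, against 31.9% and 32.8%. The median log2 difference, H9 minus H1, was -0.37 over the members and -0.01 over all genes in dexamethasone cultures, and -0.25 over the members and 0.03 over all genes in vehicle cultures. ZNF667 and ZNF835, each with an H9 group at 0, lie far below these medians also at their bounds, so the medians do not depend on them. Summed over the 93 genes, CPM was 1295 to 1336 in H9 dexamethasone and 1380 to 1626 in H9 vehicle cultures, against 1705 to 1783 in H1 dexamethasone and 1707 to 1744 in H1 vehicle cultures. With no overlap between the 3 libraries of each line, 10 members lay higher and 50 lower in H9 dexamethasone than in H1 dexamethasone cultures (33.7% and 34.5% of all genes), and 14 higher and 38 lower in H9 vehicle than in H1 vehicle cultures (27.5% and 27.2%). In the summed CPM the highest H9 library was the one that stood apart, and no H9 library reached the lowest of H1.

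ZNF genes outside the interval also leaned lower in H9. Over all genes 22.5% were higher and 21.2% lower in dexamethasone cultures, and 25.7% and 21.2% in vehicle cultures. Without H9 vehicle culture 3 the shares were 31.9% and 32.8% in dexamethasone and 30.1% and 28.6% in vehicle cultures. On the rest of chromosome 19, 16 of 120 tested ZNF genes were higher and 42 lower in dexamethasone cultures, with a median of -0.25. In vehicle cultures 23 were higher and 48 lower, with a median of -0.20. Leaving out H9 vehicle culture 3, the counts were 20 and 60 in dexamethasone and 25 and 54 in vehicle cultures. On the other chromosomes 23 of 215 were higher and 66 lower in dexamethasone cultures, with a median of -0.20. In vehicle cultures 33 were higher and 64 lower, with a median of -0.12. Without that culture 36 of 216 were higher and 99 lower in dexamethasone and 35 higher and 90 lower in vehicle cultures. The 61 other protein-coding genes of the interval had 9 higher and 14 lower in dexamethasone and 20 higher and 7 lower in vehicle cultures. Of the 63 tested without that culture, 18 were higher and 21 lower in dexamethasone and 21 higher and 15 lower in vehicle cultures. The median of these other genes was -0.24 in dexamethasone and 0.35 in vehicle cultures, the vehicle value being 0.15 without that culture. Their share lower in dexamethasone cultures, 22.95%, lay near that of all genes. Whether the cluster differs from these groups was not tested.

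The fold changes of the 2 line comparisons come from separate libraries, but their tests share 1 estimate of the spread over all 12, so the call lists are not independent of each other. Lower in H9 under both treatments were 28 members, which is 73.7% of the dexamethasone list and 87.5% of the vehicle list, and 14.7% of all genes were lower under both. Higher under both were 3 members, ZNF154, ZNF274 and ZNF460, which is 3 of the 4 in dexamethasone and 27.3% of the vehicle list, with 18.3% of all genes higher under both. When H9 vehicle culture 3 was left out, 39 members were lower and 5 higher under both, beside 25.0% and 26.4% of all genes. No member was called in opposite directions and 21 were called under neither treatment. Of the 75 members 60 had the same sign (80.0%), as had 79.1% of all genes. Of the 75 tested members 9 were called lower by at least 1 on the log2 scale in dexamethasone cultures, where 8.88% of the 17819 tested genes were, and 9 in vehicle cultures, where 7.65% were.

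**Figure D2:**
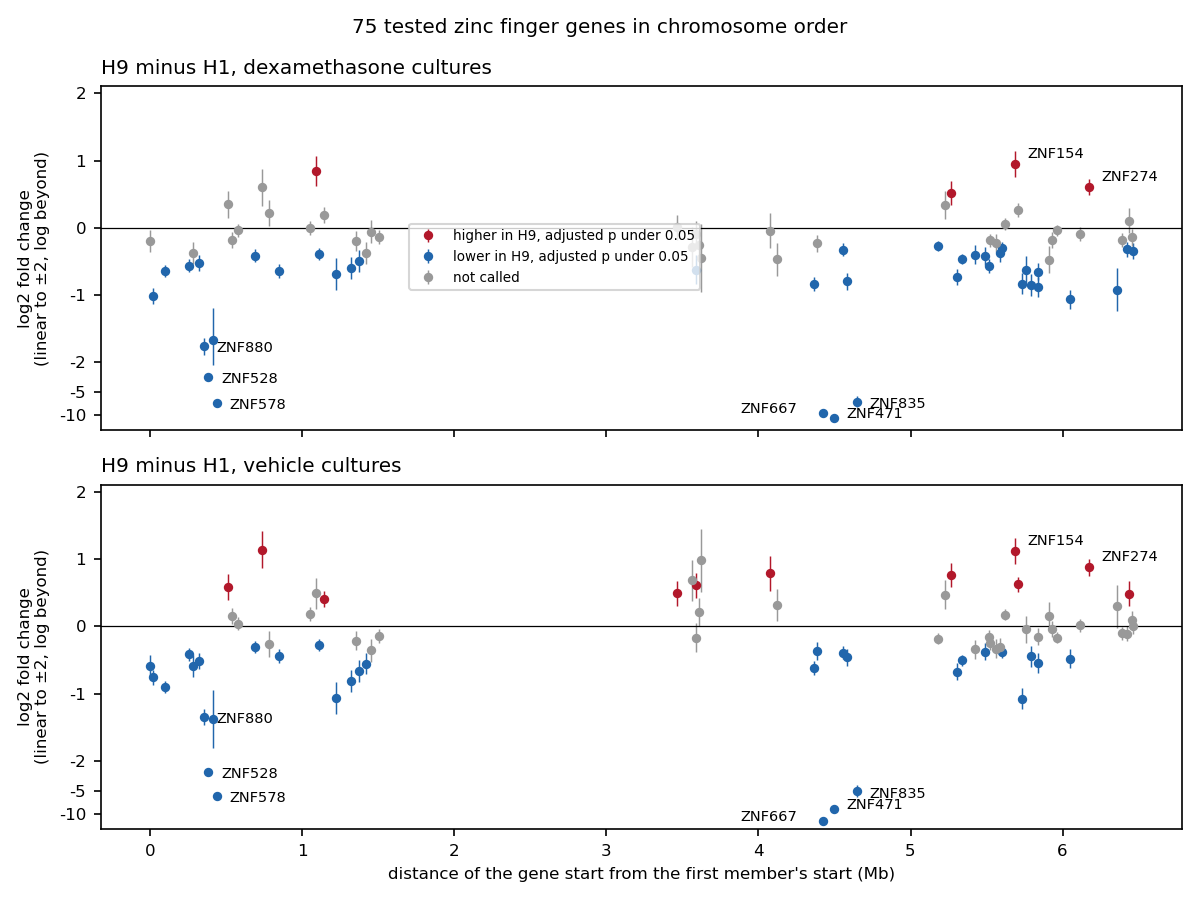
Fitted log2 fold change, H9 minus H1, of the 75 tested members against the distance of their start from that of the first member (Mb), in dexamethasone cultures (above) and vehicle cultures (below), with standard errors. The deepest points sit in 2 short stretches, around ZNF528 and ZNF578 and around ZNF667 and ZNF471, and for genes with an H9 group at 0 (ZNF667 in vehicle, ZNF835 in dexamethasone cultures) the fitted value depends on the model and is no bound.

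Starts more than 300000 bases apart were used to divide the interval into 4 blocks. The first, from ZNF614 to ZNF331 (starts 52012765 to 53519527), holds 34 members, of which 28 were tested. There 1 was higher and 14 lower in H9 in dexamethasone cultures, and 3 higher and 17 lower in vehicle cultures. The second, from ZNF628 to ZNF581 (starts 55476332 to 55635459), holds 7 members with 6 tested, and had 0 higher and 1 lower in dexamethasone and 2 higher and 0 lower in vehicle cultures. The third, ZNF787 to ZNF835 (starts 56087366 to 56661981), has 9 tested members, 0 higher and 6 lower in dexamethasone and 1 higher and 7 lower in vehicle cultures. The fourth, ZNF264 to ZNF446 (starts 57191500 to 58474017), holds 43 members with 32 tested, 3 higher and 17 lower in dexamethasone and 5 higher and 8 lower in vehicle cultures. Over all genes, 22.5% were higher and 21.2% lower in dexamethasone cultures, and 25.7% and 21.2% in vehicle cultures. The shares lower in the fourth block in vehicle (25.0%) and in the second in dexamethasone cultures (16.7%) lay near these. Without H9 vehicle culture 3 the fourth block had 5 higher and 19 lower in dexamethasone and 4 higher and 14 lower in vehicle cultures, the first 2 and 17 and then 4 and 17, the second 0 and 3 and then 1 and 1, and the third 0 and 8 and then 1 and 7. The shares of all genes were then 31.9% higher and 32.8% lower in dexamethasone cultures, and 30.1% and 28.6% in vehicle cultures. The second block was the one with a positive median in vehicle cultures, 0.55, against -0.27 in dexamethasone cultures. That median fell to 0.15 without H9 vehicle culture 3, whose summed CPM over this block was 148 against 67.5 and 82.9 in its sister cultures.

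Near silence in H9 was concentrated in few genes. ZNF667 (ENSG00000198046.11, chr19:56439325-56478065, minus strand), which encodes a KRAB zinc finger protein, had 0, 0.0835 and 0.0384 CPM in H9 dexamethasone cultures and 0, 0 and 0 in H9 vehicle cultures, against 33.1, 33.3 and 28.5 in H1 dexamethasone and 35.5, 33.5 and 32.2 in H1 vehicle cultures. All H1 libraries were high and the 6 H9 libraries together held 3 reads. The ratio of H1 to H9 was 741 in dexamethasone cultures (3 against 2395 reads, 95% exact interval 253 to 3595). With 0 against 2517 reads in vehicle cultures, the ratio was 711 at a floor of 3 reads over the group. The lower limit of its 95% interval was 578. These intervals cover counting error only, since reads without molecular identifiers are not independent molecules.

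Its neighbour ZNF471 (ENSG00000196263.7, chr19:56507843-56530221, plus strand), also a KRAB zinc finger gene, had 0, 0.0417 and 0 CPM in H9 dexamethasone cultures and 0.121, 0 and 0.136 in H9 vehicle cultures, against 44.8, 41.1 and 35.3 in H1 dexamethasone and 37.5, 36.9 and 38.2 in H1 vehicle cultures. The H9 libraries lay near 0 and did not overlap those of H1. The H1 to H9 ratio of CPM was 2840 in dexamethasone cultures (1 against 3061 reads, 95% interval 509 to 112200) and 476 in vehicle cultures (5 against 2807 reads, interval 204 to 1466). Between the pair lies ZNF667-AS1, a long noncoding RNA that starts opposite ZNF667 and overlaps its first bases (56477250 to 56500666). It had 0 reads in H9 dexamethasone against 3093 in H1 dexamethasone cultures, 957-fold lower at the floor of 3 reads (lower 95% limit 778). In H9 vehicle cultures it had 3 reads against 2987 in H1 vehicle cultures. The strand setting of the counting is not given, so reads in the shared bases cannot be assigned to one of the 2.

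The neighbours on either side were detected in every library of both lines. ZNF583, the next member before ZNF667, averaged 26.4 ± 1.92 CPM in H9 dexamethasone and 23.9 ± 4.51 in H9 vehicle cultures, against 30.9 ± 1.94 in H1 dexamethasone and 30.9 ± 0.844 in H1 vehicle cultures (SD, n = 3 each). Its log2 difference was -0.23 (SE 0.13, edgeR adjusted p = 0.17) in dexamethasone and -0.37 (SE 0.13, adjusted p = 0.035) in vehicle cultures. Without H9 vehicle culture 3 it was -0.23 in both, with adjusted p of 0.018 in dexamethasone and 0.034 in vehicle cultures, and the vehicle call was lost without H9 vehicle culture 2 or any 1 of the H1 vehicle cultures (adjusted p 0.055 to 0.089). On the far side of ZNF471, ZFP28, a zinc finger gene outside the naming rule, averaged 23.9 ± 1.28 CPM in H9 dexamethasone against 43.5 ± 0.548 in H1 dexamethasone cultures, and 21.3 ± 1.90 in H9 vehicle against 42.1 ± 2.06 in H1 vehicle cultures. ZNF470 followed with log2 differences of -0.33 (SE 0.10, adjusted p = 0.015) and -0.39 (SE 0.10, adjusted p = 0.0057), and ZNF71 with -0.80 (SE 0.12, adjusted p = 0.00030) and -0.46 (SE 0.12, adjusted p = 0.0098), in dexamethasone and vehicle cultures. The dexamethasone call of ZNF470 was lost without H9 dexamethasone culture 3 or H1 dexamethasone culture 2 (adjusted p 0.056 to 0.072). ZNF835, at the end of the block, was rare in H1 too, with 0 reads in H9 dexamethasone against 42 in H1 dexamethasone cultures. That was 13.0-fold lower at the floor of 3 reads (lower 95% limit 10.1). In H9 vehicle cultures ZNF835 had 1 read against 52 in H1 vehicle cultures (H1 to H9 ratio 44.1, 95% interval 7.57 to 1773). ZNF582, before ZNF583, was lower, at -0.84 (SE 0.11) and -0.62 (SE 0.11) on the log2 scale in dexamethasone and vehicle cultures, with adjusted p of 5.9e-05 and 0.00061 in edgeR's test.

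A second low stretch lay in the first block. ZNF578 (ENSG00000258405.9, chr19:52453576-52512154, plus strand) had 0, 0.167 and 0.0384 CPM in H9 dexamethasone cultures and 0.284, 0.125 and 0.0680 in H9 vehicle cultures, against 9.34, 9.03 and 9.80 in H1 dexamethasone and 9.83, 9.93 and 8.96 in H1 vehicle cultures. Every H9 library lay under 0.3 CPM and every H1 library near 9. The H1 to H9 ratio was 132 in dexamethasone (5 against 712 reads, 95% interval 56.4 to 408) and 55.1 in vehicle cultures (11 against 716 reads, interval 30.6 to 111).

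ZNF528 (ENSG00000167555.13, chr19:52397849-52418412, plus strand) kept a measurable level. It had 4.83, 4.88 and 4.72 CPM in H9 dexamethasone cultures and 5.79, 5.38 and 7.47 in H9 vehicle cultures, against 47.7, 43.0 and 36.4 in H1 dexamethasone and 46.0, 42.6 and 41.9 in H1 vehicle cultures. The log2 difference was -3.14 (SE 0.14, edgeR adjusted p = 3.4e-08) and -2.82 (SE 0.14, adjusted p = 7.2e-08) in dexamethasone and vehicle cultures. ZNF528-AS1, a noncoding RNA on the minus strand, fell further. It starts at 52397766, just before the start of ZNF528, and runs away from that gene. ZNF528-AS1 had 0 reads in H9 dexamethasone against 1997 in H1 dexamethasone cultures, 618-fold lower at the floor of 3 reads (lower 95% limit 502). In H9 vehicle cultures it had 2 reads against 1895 in H1 vehicle cultures (ratio 803, 95% interval 222 to 6632).

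ZNF880 (ENSG00000221923.8, chr19:52369917-52385795, plus strand) had 4.73, 5.13 and 5.02 CPM in H9 dexamethasone cultures and 6.24, 6.43 and 8.36 in H9 vehicle cultures, against 16.7, 16.8 and 17.2 in H1 dexamethasone and 17.9, 18.2 and 17.0 in H1 vehicle cultures. The groups did not overlap, and the log2 difference was -1.76 (SE 0.13, adjusted p = 7.8e-07) and -1.35 (SE 0.12, adjusted p = 5.4e-06). ZNF534, between ZNF528 and ZNF578, was rare in both lines, with 13 reads in H9 dexamethasone against 46 in H1 dexamethasone cultures and 19 in H9 vehicle against 60 in H1 vehicle cultures, and was lower, at -1.67 (SE 0.48, adjusted p = 0.014) and -1.38 (SE 0.44, adjusted p = 0.022). These calls were lost without H9 dexamethasone culture 3 or H1 dexamethasone culture 1 (adjusted p 0.053 to 0.069), and without H9 vehicle culture 1 or 2 or H1 vehicle culture 1 (adjusted p 0.070 to 0.089). ZNF610, before ZNF880, was lower, at -0.53 and -0.52 on the log2 scale (SE 0.12 each).

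The next member after ZNF578 went the other way. ZNF808, whose loss is known to impair formation of the human pancreas, had 6.76, 7.05 and 7.63 CPM in H9 dexamethasone cultures and 8.83, 6.39 and 10.5 in H9 vehicle cultures, against 5.94, 6.60 and 4.33 in H1 dexamethasone and 6.27, 5.34 and 5.40 in H1 vehicle cultures. Its log2 difference was 0.35 (SE 0.20, adjusted p = 0.18) in dexamethasone and 0.59 (SE 0.20, adjusted p = 0.028) in vehicle cultures, and 0.43 (adjusted p = 0.048) without H9 vehicle culture 3. The vehicle call was lost without H9 vehicle culture 1 or H1 vehicle culture 2 or 3 (adjusted p 0.068 to 0.087). The following pair, ZNF701 and ZNF83, passed the test under neither treatment. ZNF83 averaged 53.6 ± 3.10 CPM in H9 dexamethasone and 58.1 ± 4.52 in H9 vehicle cultures, against 55.0 ± 4.86 in H1 dexamethasone and 56.4 ± 2.08 in H1 vehicle cultures.

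**Figure D3:**
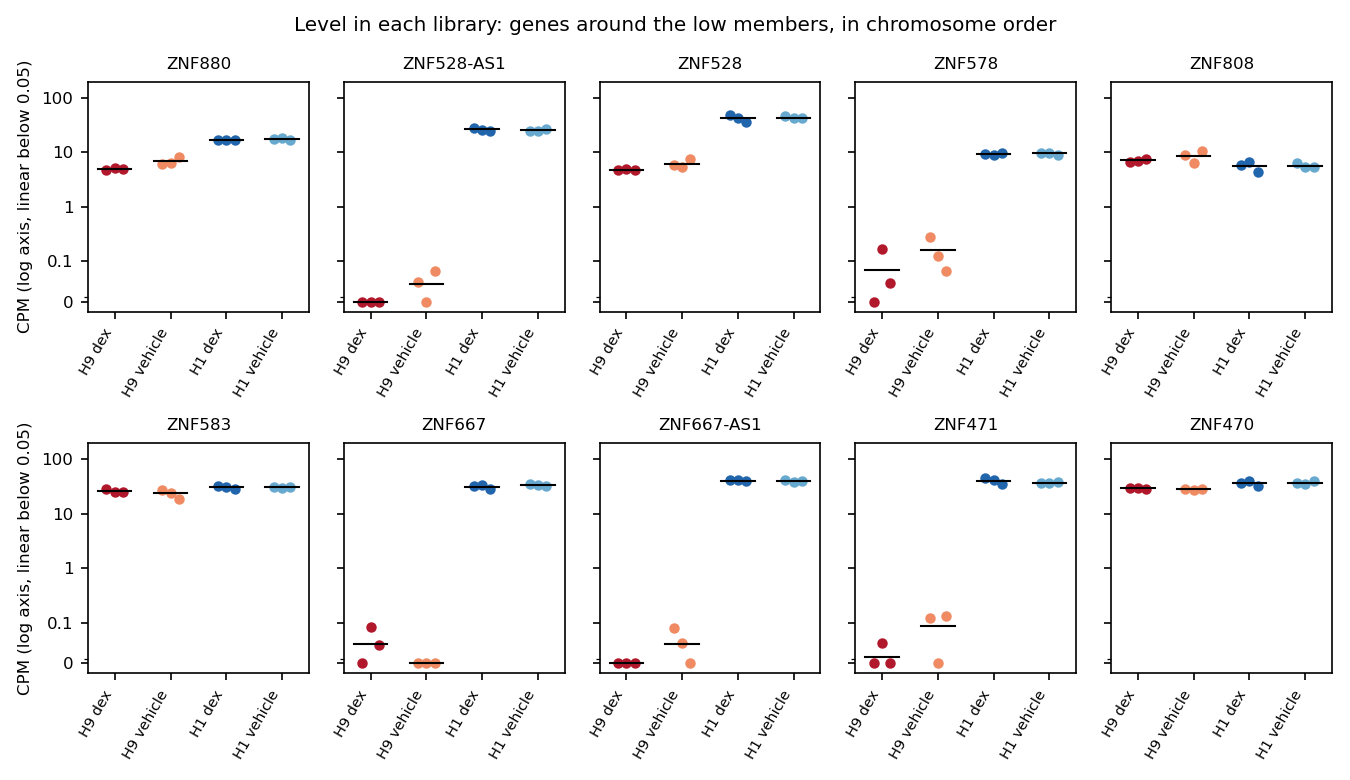
CPM in each of 12 libraries (log axis, linear under 0.05) of genes in the 2 low stretches in chromosome order, with bars at the mean of 3 cultures. ZNF528-AS1, ZNF578, ZNF667, ZNF667-AS1 and ZNF471 stay at or under 0.284 CPM in all H9 libraries, while ZNF808, ZNF583 and ZNF470 were detected in every library of both lines.

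Such near silence was rare. With 3 reads or fewer over the 6 H9 libraries and over 30 in H1, 2 members qualified, ZNF667 and ZNF835, where 0.275% of all genes did, and 0 members were near silent in H1, where 0.208% of all genes were. A fitted fall of at least 5 on the log2 scale was called for 4 members under both treatments, ZNF667, ZNF471, ZNF578 and ZNF835, against 0.471% of all genes in dexamethasone and 0.449% in vehicle cultures. Leaving out any library in turn changed the call of none of these 4, nor of ZNF528 and ZNF880.

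Outside the low stretches the falls were moderate and widespread. ZNF432, in the first block, averaged 24.3 ± 3.35 CPM in H9 dexamethasone against 49.1 ± 3.04 in H1 dexamethasone cultures, and 30.1 ± 3.04 in H9 vehicle against 50.9 ± 1.57 in H1 vehicle cultures. That was a log2 difference of -1.01 (SE 0.12, adjusted p = 2.8e-05) and -0.76 (SE 0.12, adjusted p = 0.00025). Its neighbour ZNF616 was lower, at -0.64 and -0.90 (SE 0.09 each). ZNF776, in the fourth block, averaged 27.4 ± 2.28 CPM in H9 dexamethasone against 48.9 ± 3.04 in H1 dexamethasone cultures, and 22.7 ± 5.73 in H9 vehicle against 48.0 ± 1.22 in H1 vehicle cultures, a difference of -0.83 (SE 0.16, adjusted p = 0.0010) and -1.07 (SE 0.16, adjusted p = 0.00018).

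ZNF677, a gene known to be methylated in lung tumours, had 33.4, 33.8 and 30.5 CPM in H9 dexamethasone and 34.7, 29.3 and 13.5 in H9 vehicle cultures, against 53.3, 52.7 and 51.6 in H1 dexamethasone and 54.6, 56.2 and 52.6 in H1 vehicle cultures. The third H9 vehicle culture was far below its sisters. The difference was -0.69 (SE 0.24, adjusted p = 0.033) and -1.07 (SE 0.24, adjusted p = 0.0034) in dexamethasone and vehicle cultures, and -0.77 (adjusted p = 7.5e-07) in vehicle cultures without that library. The dexamethasone call was lost without any 1 of the 6 dexamethasone libraries (adjusted p 0.071 to 0.11) and held without any 1 vehicle library. ZNF845 was lower, at -0.60 and -0.82 (SE 0.16 each). ZNF304, known in tumour cells to direct silencing of cell cycle inhibitor genes, averaged 31.5 ± 0.497 CPM in H9 dexamethasone and 29.1 ± 0.770 in H9 vehicle cultures, against 43.4 ± 1.20 in H1 dexamethasone and 41.2 ± 1.73 in H1 vehicle cultures, with log2 differences of -0.46 and -0.50 (SE 0.08 each, adjusted p = 0.00056 and 0.00033).

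The largest falls in dexamethasone cultures not yet named were in the fourth block. ZNF135 had 11.8, 12.2 and 11.04 CPM in H9 dexamethasone and 15.4, 13.9 and 19.4 in H9 vehicle cultures, against 26.4, 23.7 and 23.3 in H1 dexamethasone and 20.5, 20.7 and 26.4 in H1 vehicle cultures. The H9 cultures lay below all H1 cultures under both treatments. The difference was -1.06 (SE 0.14, adjusted p = 0.00010) in dexamethasone and -0.48 (SE 0.14, adjusted p = 0.016) in vehicle cultures. The vehicle call was lost without H9 vehicle culture 2 or H1 vehicle culture 3 (adjusted p 0.057 to 0.080). ZNF814 differed by -0.89 and -0.55 (SE 0.15 each), and ZNF552 by -0.85 and -0.44 (SE 0.16 each), all called. The vehicle call of ZNF552 was lost without H9 vehicle culture 1 or 2 or any 1 of the H1 vehicle cultures (adjusted p 0.050 to 0.13) and with a replicate block or no filter on low counts, and that of ZNF552 and of ZNF814 with vehicle libraries alone. ZNF552 lies with its whole span opposite another gene, so without a known strand setting its reads are not its own for certain. ZNF837 was lower, at -0.92 (SE 0.32, adjusted p = 0.035) in dexamethasone cultures, a call lost without any 1 of the 6 dexamethasone libraries (adjusted p 0.054 to 0.12). In vehicle cultures its difference was 0.30 (adjusted p = 0.46) with and -0.25 (adjusted p = 0.29) without H9 vehicle culture 3, which had 5.30 CPM against 1.95 and 2.25 in its sisters.

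**Figure D4:**
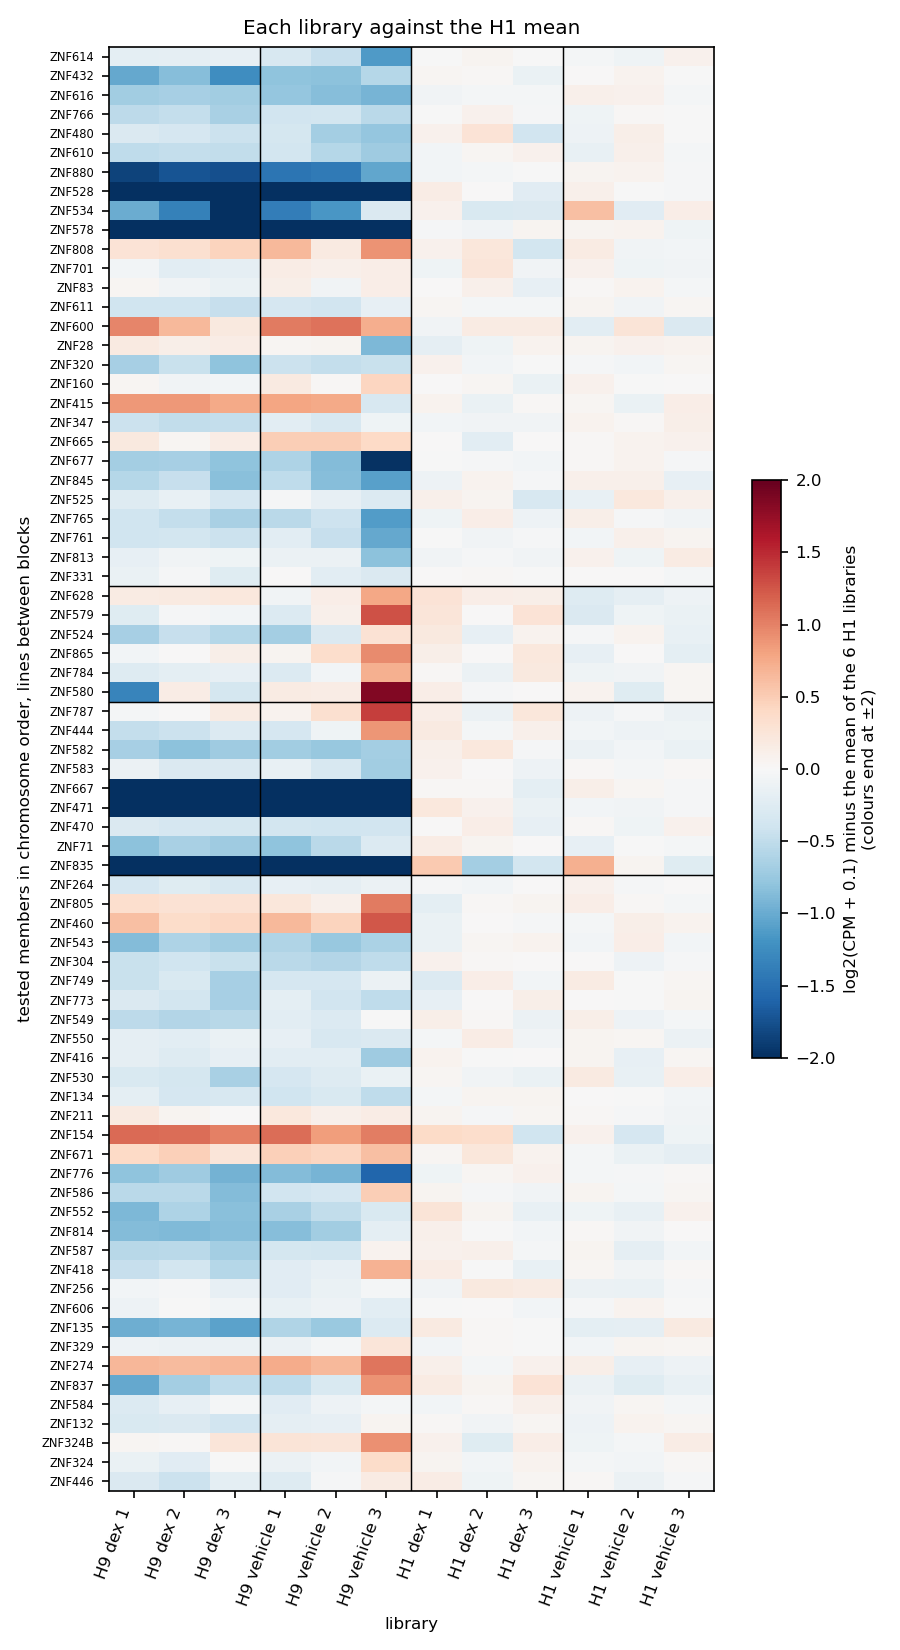
Each of the 75 tested members in each library, as log2(CPM + 0.1) minus the mean of the 6 H1 libraries, with members in chromosome order and colours ending at ±2. Blue dominates in both H9 groups, the darkest rows being ZNF528, ZNF578, ZNF667, ZNF471 and ZNF835, and H9 vehicle culture 3 departs from its sisters in both directions, among others upward in all 6 rows of the second block.

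Few members were higher in H9. ZNF274 (chr19:58183029-58213562), which encodes a KRAB and SCAN domain protein known to bind the ends of other zinc finger genes and to recruit SETDB1 there, had 63.8, 62.8 and 64.1 CPM in H9 dexamethasone and 67.4, 63.5 and 85.3 in H9 vehicle cultures, against 43.2, 39.3 and 42.9 in H1 dexamethasone and 43.9, 35.9 and 37.7 in H1 vehicle cultures. All H9 libraries lay above all H1 libraries. The log2 difference was 0.60 (SE 0.12, adjusted p = 0.0016) in dexamethasone and 0.88 (SE 0.12, adjusted p = 0.00012) in vehicle cultures, and 0.74 in vehicle cultures without H9 vehicle culture 3.

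ZNF154 (chr19:57697367-57709194), whose promoter is known to be methylated in many tumour types, had 10.8, 10.6 and 9.89 CPM in H9 dexamethasone and 10.7, 8.77 and 9.99 in H9 vehicle cultures, against 6.37, 6.23 and 3.67 in H1 dexamethasone and 5.17, 3.82 and 4.56 in H1 vehicle cultures. It was higher in all 6 H9 libraries, by 0.95 (SE 0.20, adjusted p = 0.0021) and 1.12 (SE 0.20, adjusted p = 0.00075) on the log2 scale. Its whole span lies opposite another gene, as does that of ZNF671, so here too the strand of the reads is not certain. ZNF671 was higher by 0.62 (SE 0.11, adjusted p = 0.00070) in vehicle cultures and differed by 0.26 (SE 0.11, adjusted p = 0.069) in dexamethasone cultures, where it was called without H9 vehicle culture 3 (adjusted p = 0.023), with DESeq2 and with dexamethasone libraries alone. ZNF460 was higher by 0.52 (SE 0.18, adjusted p = 0.032) in dexamethasone and 0.77 (SE 0.18, adjusted p = 0.0039) in vehicle cultures, and by 0.51 (adjusted p = 0.0011) in the vehicle cultures without H9 vehicle culture 3. Its dexamethasone call was lost without H9 dexamethasone culture 1 or 3 or any 1 of the H1 dexamethasone cultures (adjusted p 0.061 to 0.11).

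Several rises in vehicle cultures rested largely on H9 vehicle culture 3. ZNF787 had 21.9, 22.7 and 25.2 CPM in H9 dexamethasone and 23.8, 28.2 and 59.1 in H9 vehicle cultures, against 24.6, 20.8 and 26.4 in H1 dexamethasone and 21.1, 22.2 and 20.7 in H1 vehicle cultures. The 59.1 CPM came from culture 3. The log2 difference in vehicle cultures was 0.79 (SE 0.26, adjusted p = 0.029), and 0.28 (adjusted p = 0.033) without that library. The call was lost without any 1 of the H1 vehicle cultures (adjusted p 0.064 to 0.078). For ZNF865 the difference was 0.61 with the library and 0.32 without it, both called, and the call was lost without H1 vehicle culture 1 or 3 (adjusted p 0.055 to 0.059). ZNF628 and ZNF324B were called at 0.50 and 0.49 with the library, and were at 0.22 (adjusted p = 0.13) and 0.24 (adjusted p = 0.11) without it, and lost their calls in 10 and 9 of the 12 fits that left out 1 library. None of these 4 passed in dexamethasone cultures, where their differences were -0.04, -0.09, 0.00 and 0.11. ZNF665 differed by 0.41 (SE 0.12, adjusted p = 0.014) in vehicle cultures, and by 0.44 without culture 3, a call lost without H1 vehicle culture 1 (adjusted p = 0.053). ZNF600, under the level asked of named genes and given because it was 1 of 2 members that rose by at least 1 in vehicle cultures (13.1% of all genes did, and 11.3% in dexamethasone cultures, where 0 members did), averaged 1.37 ± 0.189 CPM in H9 vehicle against 0.624 ± 0.155 in H1 vehicle cultures.

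ZNF415 showed the reverse dependence. It had 20.3, 20.4 and 18.98 CPM in H9 dexamethasone and 19.2, 18.99 and 8.90 in H9 vehicle cultures, against 11.7, 10.1 and 11.3 in H1 dexamethasone and 11.5, 10.2 and 12.2 in H1 vehicle cultures. The single low H9 value was that of culture 3. It was higher by 0.85 (SE 0.22, adjusted p = 0.0091) in dexamethasone cultures. In vehicle cultures the difference was 0.49 (adjusted p = 0.092) with culture 3 and 0.76 (adjusted p = 1.0e-05) without it.

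**Figure D5:**
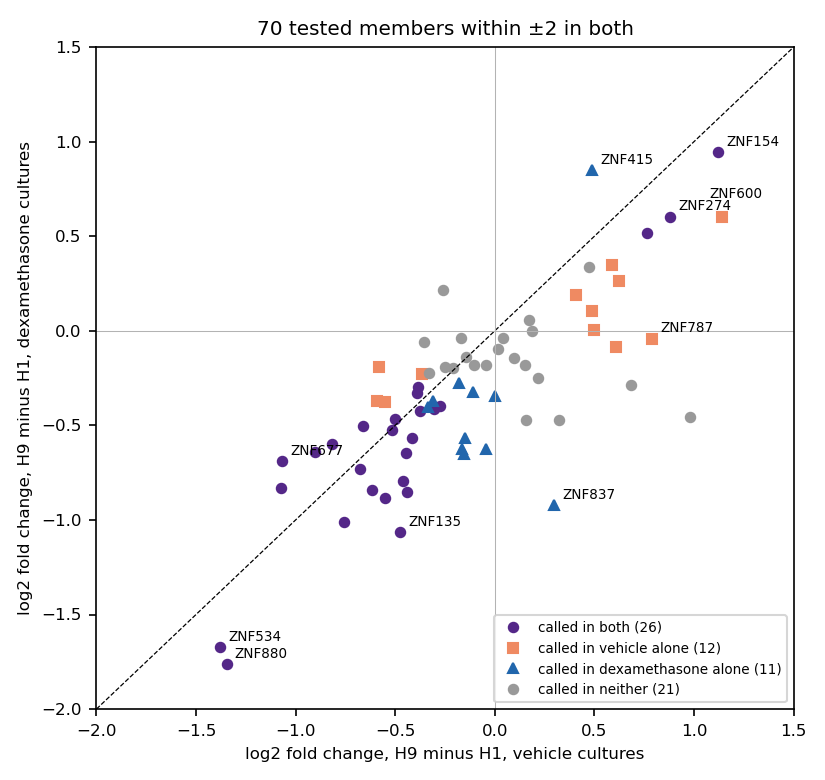
Log2 fold change, H9 minus H1, in dexamethasone cultures (vertical) against vehicle cultures (horizontal) for the 70 tested members within ±2 in both, with a dashed line of equality. Of the 70, 26 were called under both treatments, all in the same direction each time. ZNF837 and ZNF787 stand off the line, 2 genes whose vehicle value moves without H9 vehicle culture 3.

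By level per kilobase of exon, averaged over 12 libraries, the 5 highest members were ZNF211 with 11.2, ZNF134 with 9.30, ZNF586 with 9.23, ZNF304 with 7.88 and ZNF865 with 7.57 CPM per kb. ZNF211 did not pass the test between the lines, averaging 37.5 ± 2.41 CPM in H9 dexamethasone and 39.3 ± 1.505 in H9 vehicle cultures against 36.0 ± 1.00 in H1 dexamethasone and 34.9 ± 1.18 in H1 vehicle cultures. ZNF134 was lower in H9, at -0.30 and -0.39 (SE 0.09 each), the dexamethasone call being lost without H9 dexamethasone culture 2 or 3 or H1 dexamethasone culture 2 (adjusted p 0.052 to 0.063). ZNF586 was lower, at -0.62 (SE 0.20, adjusted p = 0.023) in dexamethasone cultures and at -0.05 (adjusted p = 0.87) in vehicle cultures, where H9 vehicle culture 3 had 46.55 CPM and its sisters 25.5 and 26.2. Without that culture its vehicle difference was -0.38 (adjusted p = 0.0029). Its dexamethasone call was lost without H9 dexamethasone culture 3 or H1 dexamethasone culture 1 or 2 (adjusted p 0.051 to 0.094).

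ZNF331, an imprinted gene at the end of the first block, did not pass either, with -0.14 (SE 0.10, adjusted p = 0.30) and -0.15 (SE 0.10, adjusted p = 0.26), the vehicle value being -0.09 (adjusted p = 0.42) without H9 vehicle culture 3. ZNF587 was lower, at -0.65 (SE 0.12, adjusted p = 0.0012) in dexamethasone cultures and at -0.15 (adjusted p = 0.33) in vehicle cultures, where it was -0.31 and called (adjusted p = 0.0036) without H9 vehicle culture 3. ZNF587 shares 59.55% of its span with genes on its own strand and all of it with genes on the other.

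The genes through which KRAB proteins act were followed as well. Of 17 tested genes for KRAB cofactors and heterochromatin, 11 were lower and 0 higher in dexamethasone cultures, and 9 lower and 0 higher in vehicle cultures, beside the 21.2% of all genes lower under each treatment. With H9 vehicle culture 3 left out, 11 were lower and 1 higher in dexamethasone and 12 lower and 0 higher in vehicle cultures. The shares of all genes lower were then 32.8% and 28.6%. TRIM28, itself on this chromosome arm, averaged 246 ± 15.6 CPM in H9 dexamethasone against 423 ± 39.3 in H1 dexamethasone cultures, and 270 ± 46.2 in H9 vehicle against 387 ± 13.5 in H1 vehicle cultures (log2 -0.78 and -0.52, adjusted p = 0.00035 and 0.0050). CBX5, an HP1 protein gene, was lower, at -0.51 and -0.57 (SE 0.09 each). SETDB1 was lower, at -0.47 (SE 0.09, adjusted p = 0.00098) in dexamethasone cultures and at -0.20 (adjusted p = 0.077) in vehicle cultures, where it was -0.24 (adjusted p = 0.0077) without that culture. Of 9 tested genes for DNA methylation and demethylation, 6 were lower in dexamethasone and 5 in vehicle cultures, with 0 higher, and 7 in each without that culture. Beside them stand the same shares of all genes, 21.2% lower under each treatment, and 32.8% and 28.6% without that culture. UHRF1, which recruits the maintenance methyltransferase DNMT1 in dividing cells, had the lowest of these differences, -2.45 and -2.42 (SE 0.18 each), beside the proliferation markers given above, whose part in this was not tested.

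The series was made to follow acute glucocorticoid treatment, and no member passed the test of dexamethasone against vehicle. In H9, 0 of 75 members had an adjusted p under 0.05 in edgeR's test, where 0.0673% of all genes did, and 20 had an unadjusted p under 0.05 (2 higher and 18 lower), where 16.3% of all genes did, 4.19% higher and 12.1% lower. In H1, 0 members passed and 0 had an unadjusted p under 0.05, where 0.0505% and 2.95% of all genes did. For the mean of both lines 0 passed and 6 had an unadjusted p under 0.05, against 0.101% and 7.49% of all genes. The median log2 effect over the members was -0.18 in H9, beside -0.02 over all genes, and 0.01 in H1, beside 0.00. Without H9 vehicle culture 3 the H9 median was -0.08 and 11 members had an unadjusted p under 0.05, beside 11.1% of all genes, while 7 had one in H1, beside 10.0% of all genes.

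ZNF549 had the lowest unadjusted p in H9. It had 39.3, 37.5 and 38.4 CPM in H9 dexamethasone against 49.0, 46.9 and 56.3 in H9 vehicle cultures, and 61.4, 57.1 and 52.2 in H1 dexamethasone against 61.5, 52.5 and 54.7 in H1 vehicle cultures. The H9 groups did not overlap and the H1 groups did. The log2 effect was -0.40 in H9 (unadjusted p = 0.0022, adjusted p = 0.29 in edgeR) and 0.02 in H1. DESeq2, run as an alternative, called this 1 member in H9 with an adjusted p of 0.045, and its 0 calls in H1 and for the mean matched those of edgeR and limma-voom. Without H9 vehicle culture 3 the effect in H9 was -0.32 (adjusted p = 0.13). In H1 the lowest unadjusted p was that of ZNF671 at 0.057, and over both lines that of ZNF347 at 0.0075, each with an adjusted p above 0.5.

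No single member showed a dependence of the line difference on treatment that passed the test. The difference of the 2 line differences passed for 0 members and 0.00% of all genes, and 12 members had an unadjusted p under 0.05, beside 7.46% of all genes (10 members and 10.4% without H9 vehicle culture 3). Of the 12, 1 was higher and 11 lower. The median difference was -0.19 over the members and -0.015 over all genes. Without H9 vehicle culture 3 it was -0.089 over the members and -0.0077 over all genes. ZNF135 had the lowest unadjusted p, with a difference of -0.59 (unadjusted p = 0.013, adjusted p = 0.55). With 3 cultures a group the median standard error on this scale was 0.19 over the members. A dependence as large as that of ZNF135 did not pass, so moderate ones could be missed.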

How the data were processed

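Gene counts of 12 libraries of poly(A) RNA were deposited, 1 file per culture. Per the submitters' processing notes the authors used STAR 2.5.3a, HTSeq and the builds hg38 and GRCh38.p10; per the labels' protocols reads from 2 flow cells of a NextSeq 500 were pooled. For the strand setting, the annotation release and reads that map to several places, the answer is not given in the sources used here. The deposited counts were used without change. Gene names and positions came from GENCODE 29, and promoter windows from RefSeq (GRCh38.p14).

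Genes with enough reads (filterByExpr, 17819 genes) were fitted with edgeR 4.0.16 in R 4.3.3, as 4 group means over all 12 libraries with TMM scaling, and tested with the quasi-likelihood F test, two-sided, with Benjamini-Hochberg adjustment over all tested genes and a threshold of 0.05. Every adjusted or unadjusted p of a single gene in the text is from this test unless DESeq2 is named. CPM are counts scaled to a common library size with TMM factors. Standard errors were taken from the fold change and its F statistic. Ratios of read counts have exact conditional intervals at 95%. A group with 0 reads was given a floor of 3 reads, a convention, and the lower limit of the interval is given beside that ratio. The 3 libraries of a group come from sister cultures of 1 line, and every p-value is relative to their spread alone. No pair of libraries within a group agreed within sampling noise (chi-square per gene 4.08 to 175).

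Named genes were the 10 largest called changes each way in vehicle and the 5 in dexamethasone cultures. They needed a mean of at least 1 CPM and no overlap of libraries between the lines in that treatment. For these genes the lack of overlap was thus fixed by the choice and is no further support. Also named were the 5 highest by CPM per kb of exon, near-silent members, the lowest p of each treatment test, and members of known function. The members and lists were chosen with earlier results of these data known, and the promoter motifs after the windows had been read. Alternatives were other scalings and filters, DESeq2 1.42.0, limma-voom (limma 3.58.1), a replicate block, each library left out, and fits of 1 treatment or line alone. The fitting code was tested on simulated data. Python 3.11.15, pandas 2.3.3, SciPy 1.17.1 and Matplotlib 3.10.9 were used.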

Additional observations from a re-analysis of the deposited data

How the results depend on the processing

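In vehicle cultures the 11 members higher in H9 became 5 with vehicle libraries alone, 2 with a minimum log2 change of 1, and 6 to 14 when 1 library was left out (6 without H1 vehicle culture 1 or 3, 7 without H1 vehicle culture 2). The 32 lower became 21 with vehicle libraries alone, 9 with the minimum change, and 25 to 39 with a library left out. Calls over all genes, both directions together, were 8350 in the main fit and 5284 with vehicle libraries alone. They ranged from 6711 to 10608 with a library left out. With the minimum change, 13.1% of all genes were higher and 7.65% lower. In dexamethasone cultures the 4 higher became 7 with dexamethasone libraries alone, 0 with the minimum change, and 3 to 7 with a library left out. The 38 lower became 9 with the minimum change and 25 (without H9 dexamethasone culture 3) to 47 (without H9 vehicle culture 3). Over all genes the calls were 7777 in the main fit and 11002 with dexamethasone libraries alone. They were 6108 without H9 dexamethasone culture 3 and 11697 without H9 vehicle culture 3. With the minimum change, 11.3% of all genes were higher and 8.88% lower. For dexamethasone against vehicle in H9, DESeq2 called 1 member where edgeR called 0, and no library left out gave a call in H9, H1 or their mean.

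Of 48 called line differences of the 29 members chosen by the rule for named genes, 35 kept their call under every alternative run, and over 957 such alternatives 75 lost the call and 0 reversed. Values that changed sign were all uncalled. In dexamethasone cultures ZNF628 had 0.0040, and -0.000916 with a replicate block and -0.025 to 0.054 with a library left out, ZNF787 had -0.04, and -0.13 to 0.034, and ZNF324B had 0.11, and -0.0052 to 0.18. In vehicle cultures ZNF837 had 0.30, and -0.25 to 0.52. The cause was not tested.

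Same-numbered cultures correlated by -0.159 to 0.179 in their deviations from the group means, and differently numbered ones by -0.178 to 0.184. Between vehicle and dexamethasone cultures of H1, same-numbered pairs lay at 0.0498 to 0.179 and the others at -0.178 to 0.0732. In H9 they lay at -0.0145 to 0.113 and -0.134 to 0.0841. The main fit did not pair the cultures by number, and whether the numbers pair them was not settled. With the replicate block 10 members were higher and 31 lower in vehicle cultures, and 4 higher and 35 lower in dexamethasone cultures. Over all genes, both directions together, that fit gave 8238 calls in vehicle and 7734 in dexamethasone cultures. Depth limits the rare members: ZNF835 and ZNF534 had at most 60 reads in any group.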

Other observations

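Pseudogenes and antisense RNAs between the members also differed between the lines. ZNF137P, a zinc finger pseudogene before ZNF83, averaged 1.52 ± 0.176 CPM in H9 dexamethasone against 4.01 ± 0.793 in H1 dexamethasone cultures, and 1.495 ± 0.119 in H9 vehicle against 3.69 ± 0.251 in H1 vehicle cultures (SD, n = 3 each). ZNF542P, a pseudogene before ZNF582, averaged 21.4 ± 1.69 CPM in H9 dexamethasone against 57.25 ± 0.467 in H1 dexamethasone cultures, and 17.6 ± 6.21 in H9 vehicle against 56.25 ± 0.779 in H1 vehicle cultures. ZNF582-AS1, antisense and adjacent to ZNF582, lay higher in H9 vehicle cultures, with a log2 difference of 0.70 (edgeR adjusted p = 0.0036), and at 0.23 (adjusted p = 0.25) in dexamethasone cultures. Of the imprinted genes next to the third block, PEG3 and MIMT1 were listed at 0 in all libraries, and ZIM2, ZIM3 and USP29 had 1, 2 and 4 reads over the 12 libraries. Like the other listed 0s above, these were not read as absence of RNA.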
